A study of Mus musculus with 2 samples.

Results

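The genes described here are those of MHC class I and peptide loading, chosen by symbol: the class I heavy chains *H2-K1* and *H2-D1*, the light chain *B2m*, the peptide transporter subunits *Tap1* and *Tap2*, the chaperone *Tapbp*, the peptidase *Erap1* and the transcriptional activator *Nlrc5*. All 8 were listed in both libraries, among 14732 gene symbols found in at least 1 library. The CD8+ T cells came from OT-I transgenic C57BL/6 mice aged 6 to 8 weeks (spleen and lymph nodes) and were activated for 24 h with 2.5 ng/mL of SIINFEKL and 10 U/mL of IL-2. Control OT-I cells then received the empty retroviral vector, which carries human CD2, and Eomes-overexpressing OT-I cells received the same vector with Eomes. Both were sorted for human CD2 48 h later and restimulated at 40000 cells per well with the same peptide and cytokine doses for 3 days. Each condition is 1 bulk RNA library (Ctrl_1 and Eomes_1, below the control and the Eomes library), so no replicate spread and no test between the conditions exist, and the differences below compare 2 libraries.

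MHC class I molecules display peptides from inside the cell to CD8+ T cells. The proteasome cuts proteins into peptides, the TAP transporter moves them into the endoplasmic reticulum, ERAP1 trims them, and tapasin holds an empty heavy chain with beta-2 microglobulin until a peptide is bound. In C57BL/6 mice *H2-K1* encodes H-2Kb, which presents SIINFEKL to the OT-I receptor, and *H2-D1* encodes H-2Db. NLRC5 drives transcription of class I genes, among them *H2-K1*, *H2-D1* and *B2m*, through a promoter module that is shared with MHC class II genes. Interferon-gamma raises class I transcription, in part through IRF1.

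Short letter patterns of that module and of interferon-regulated promoters were looked for in the 250 bases before each RefSeq transcription start (GRCm38.p6, the assembly called mm10), and a window was given for 6 of the 8 genes. *Tap2* and *Nlrc5* were not matched. Windows are shown for the 3 genes that encode the class I molecule itself, and for *H2-Q10*, a related heavy chain gene whose log2 ratio was the farthest from 0 among the expressed heavy chain genes. They lie at chr17:34000348-34000597 on the minus strand, and at chr17:35262844-35263093, chr2:122147437-122147686 and chr17:35469839-35470088 on the plus strand, and are written 5′ to 3′ along the gene. Capitals mark matches on either strand to the IRF core AANNGAAA, the CRE-type core TGACG and the box CCAAT, which reads ATTGG on the other strand.
H2-K1: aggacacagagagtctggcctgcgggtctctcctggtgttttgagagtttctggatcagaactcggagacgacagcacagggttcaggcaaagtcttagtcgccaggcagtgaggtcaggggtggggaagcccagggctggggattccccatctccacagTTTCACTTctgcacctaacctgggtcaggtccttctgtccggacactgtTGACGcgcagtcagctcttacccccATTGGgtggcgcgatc
H2-D1: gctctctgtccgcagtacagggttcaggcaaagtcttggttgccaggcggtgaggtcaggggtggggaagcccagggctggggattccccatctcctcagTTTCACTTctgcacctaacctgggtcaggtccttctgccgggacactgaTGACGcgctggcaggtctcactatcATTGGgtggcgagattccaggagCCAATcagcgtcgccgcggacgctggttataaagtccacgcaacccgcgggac
B2m: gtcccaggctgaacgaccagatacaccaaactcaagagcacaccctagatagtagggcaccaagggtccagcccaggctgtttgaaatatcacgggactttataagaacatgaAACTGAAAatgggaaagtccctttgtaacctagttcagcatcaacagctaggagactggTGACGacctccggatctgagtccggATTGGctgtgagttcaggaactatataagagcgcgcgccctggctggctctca
H2-Q10: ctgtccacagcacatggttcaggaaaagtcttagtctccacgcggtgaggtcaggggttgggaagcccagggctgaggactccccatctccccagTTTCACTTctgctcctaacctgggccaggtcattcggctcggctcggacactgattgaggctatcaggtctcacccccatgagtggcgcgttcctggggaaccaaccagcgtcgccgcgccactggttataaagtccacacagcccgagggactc

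In *H2-K1*, *H2-D1* and *B2m* the TGACG core was followed after exactly 20 bases by ATTGG. This spacing, chosen after the 3 sequences had been seen, occurred in 30 of 32851 promoter windows (0.0913%) and in 26 of 27025 gene symbols, *H2-M3* being another class I gene among them. The IRF core was found in the windows of *H2-K1*, *H2-D1* and *B2m*, and in 21.3% of all windows. CCAAT was in 5 of the 6 windows and in 33.8% of all windows, and TGACG in 4 of the 6 and in 17.8%. Each of these is common. *H2-K1* has another annotated start, at 34000333 in place of 34000347. Its window, not shown, holds the same spacing and a further CCAAT match. The T-box letters AGGTGTGA, in 1.12% of all windows, were in none of the 6 windows. The windows of *H2-K1* and *H2-D1*, aligned without gaps on the shared spacing, were identical at 166 of 190 bases (87.4%). The window of *H2-Q10* held only the IRF core. Aligned with *H2-K1* on that core it was identical at 126 of 185 bases (68.1%), a count in which any inserted base shifts all bases beyond it. A match is a description of the letters and not a binding site.

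*Eomes* itself had 2.47 RPKM in the control and 129.6 RPKM in the Eomes library (log2 ratio 5.71), in the direction of the label. RPKM is the number of reads scaled to transcript length and library size, as deposited by the authors, and log2 ratios are Eomes-overexpressing over control. A gene that reached 1 RPKM in either library was called expressed, and it was called higher or lower when it was past 1.5-fold, a log2 ratio of 0.58. All 6 markers of CD8 T cells were expressed, from *Cd247* (83.9 and 80.9 RPKM) to *Cd3g* (264.4 and 196.5 RPKM), and *Cd8a* was lower in the Eomes library (99.1 against 181.8). All 6 had log2 ratios below 0, with a median of -0.34 (-0.38 after centring by GC content of the transcript). For B cells the marker *Cd79b* was at 2.79 and 1.56, *Cd79a* did not exceed 0.08, and *Ms4a1* and *Pax5* were listed in neither library. For myeloid and dendritic cells *Xcr1* was at 1.79 and 1.11, *Itgax* and *Itgam* did not exceed 0.18, and *Csf1r*, *Lyz2* and *Adgre1* were listed in neither library. The summed RPKM of the myeloid list was 1.97 and 1.45. Of the NK markers *Klrb1c* rose from 0.31 to 5.74 while *Ncr1* was not listed, and the CD4 T cell markers *Cd4* and *Foxp3* did not exceed 0.09. Defining markers of other lymphoid and myeloid cells were thus low or not listed, apart from *Klrb1c* in the Eomes library. In such bulk samples fewer cells of a type and less RNA per cell cannot be told apart.

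None of the 8 class I and loading genes was past 1.5-fold in either direction. Among all 9925 expressed genes 7.65% were past it, 2.46% higher and 5.19% lower. At the levels of the 8 genes the share was smaller. It was 3.06% for a mean RPKM of 10 to 50, 2.42% for 50 to 100 and 1.57% for 400 or more. None of 8 is thus close to the share over genes of like level. The log2 ratio was below 0 for 7 of the 8 genes, with a median of -0.15, whereas it was below 0 for 50.5% of all expressed genes, with a median of -0.0037. *B2m* is among the 7, at -0.0010. For genes whose RPKM averaged 400 or more, the level of *B2m*, *H2-K1* and *H2-D1*, the median was -0.07. It was -0.0024 at 10 to 50 and -0.0074 at 50 to 100, the levels of the other genes. The median of -0.34 for the 6 CD8 T cell markers was further below 0 than that of the class I genes, and its part in the class I values was not tested. *Erap1* was the gene with a value above 0. Within the set the ratios ran from -0.29 for *H2-K1* to 0.37 for *Erap1*.

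**Figure D1:**
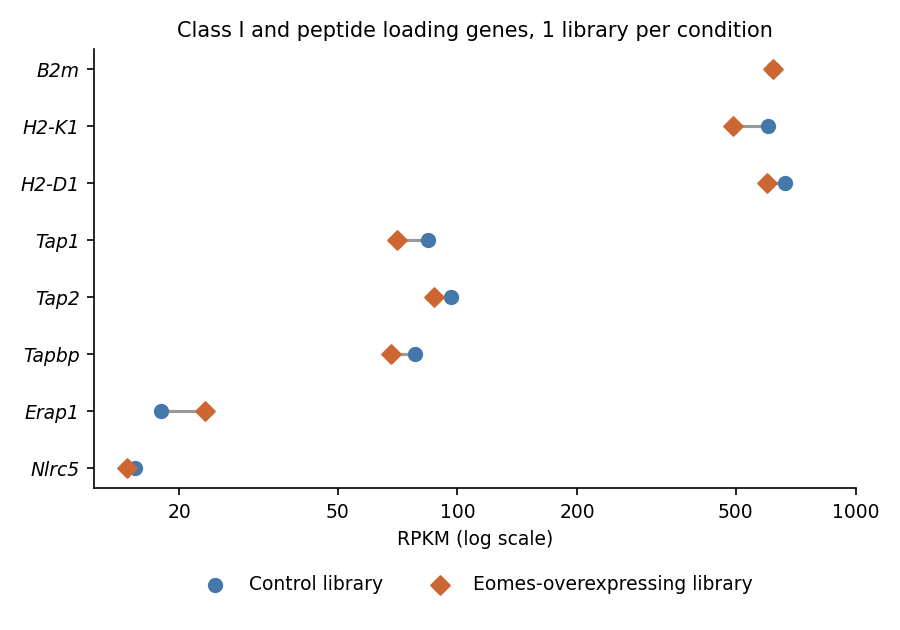
RPKM (log axis) of the 8 class I and peptide loading genes in the control library (circles) and the Eomes-overexpressing library (diamonds), 1 library per condition and therefore without error bars. The heavy and light chain genes sit between 492 and 665, the transporter and tapasin genes between 68.0 and 96.1, and *Erap1* and *Nlrc5* between 14.8 and 23.2.

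The chains of the class I molecule were among the most abundant transcripts of both libraries. *H2-K1*, the heavy chain that presents the OT-I peptide, lies on chromosome 17 of mm10 from 33996017 to 34000347, and had 602.0 RPKM in the control library against 492.1 RPKM in the Eomes library. That is 0.818 times the control value, a log2 ratio of -0.29, and 86.5% of expressed genes had a higher ratio. *H2-D1*, on chromosome 17 from 35262730 to 35267499, was at 665.4 and 597.4, a log2 ratio of -0.16. *B2m*, the light chain that every class I heavy chain needs at the cell surface, lies on chromosome 2 from 122147686 to 122153083. It had 620.5 RPKM and 620.1 RPKM, a log2 ratio of -0.0010, which turned above 0 under each of the 3 other scalings (0.0027 to 0.031). As deposited, both heavy chain values were lower in Eomes-overexpressing cells while the light chain was nearly the same in both. With the log2 ratios centred by GC content this contrast was lost for *H2-K1* (-0.21 beside -0.21 for *B2m*) and turned for *H2-D1* (-0.07). By deposited values the summed RPKM of *H2-K1* and *H2-D1* was 2.04 times that of *B2m* in the control library and 1.76 times in the Eomes library. *H2-K1* stood at 0.905 of *H2-D1* in the first and at 0.824 in the other. By RPKM *H2-D1*, *B2m* and *H2-K1* were at ranks 121, 130 and 132 of the expressed genes in the control library, and at ranks 131, 126 and 155 in the Eomes library. For the 191 genes whose RPKM averaged 400 or more, 95% of the log2 ratios lay between -0.34 and 0.23, and all 3 chains are inside that range.

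The transporter subunits and tapasin had lower values in the Eomes library, each by less than 1.5-fold. *Tap1*, a subunit of the transporter that carries peptides into the endoplasmic reticulum, had 84.6 RPKM in the control library and 70.6 RPKM in the Eomes library (log2 ratio -0.26). *Tap2*, its partner subunit, was at 96.1 and 87.5 (log2 ratio -0.14). The ratio of *Tap1* to *Tap2* was 0.880 in the control and 0.806 in the Eomes library. *Tapbp*, which encodes tapasin, the bridge between the transporter and the empty heavy chain, was at 78.3 and 68.0 (log2 ratio -0.20). The order *Tap2*, *Tap1*, *Tapbp* was the same in both libraries, and whether such neighbours differ cannot be tested with 1 library each. For the 910 genes whose RPKM averaged 50 to 100, 95% of the log2 ratios lay between -0.41 and 0.39, a range that holds all 3 genes.

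*Erap1*, the aminopeptidase that trims peptides in the endoplasmic reticulum, had the opposite sign. It lies on chromosome 13 from 74639568 to 74693201, and had 18.0 RPKM in the control library against 23.2 RPKM in the Eomes library. The log2 ratio of 0.37 was above that of 92.0% of expressed genes and within the central 95% for the 3851 genes whose RPKM averaged 10 to 50 (-0.54 to 0.44). *Nlrc5*, the class I transactivator, on chromosome 8 from 94434356 to 94527272, was at 15.5 and 14.8 (log2 ratio -0.07). Its transcript level was therefore close in the 2 libraries, and was the lowest of the 8 genes in both.

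**Figure D2:**
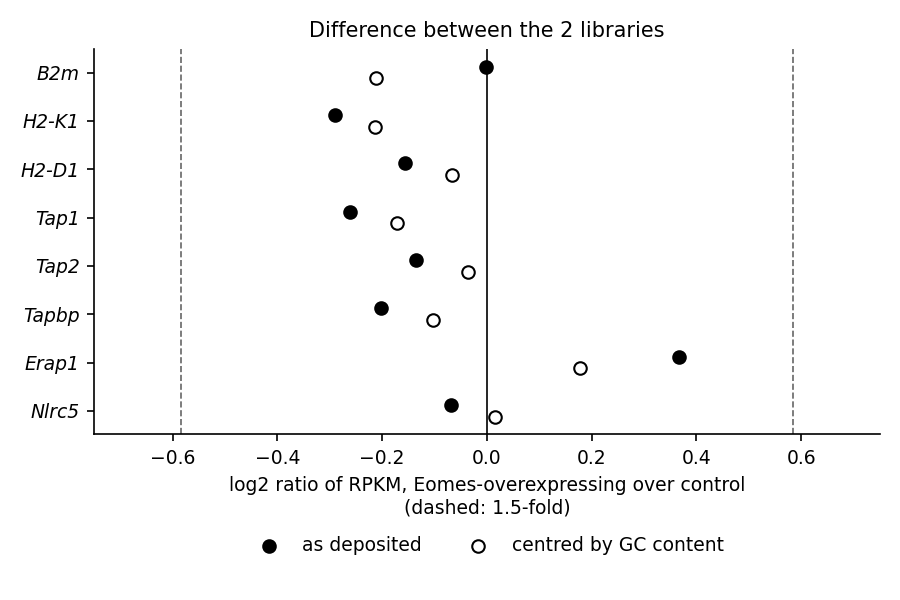
Log2 ratio of RPKM, Eomes-overexpressing over control, for the 8 genes, as deposited (filled points) and after centring by the GC content of the transcript (open points). All points lie inside the dashed lines that mark 1.5-fold, *Erap1* is at 0.37 and 0.18, and *B2m* moves from -0.0010 to -0.21.

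The log2 ratio of all genes was related to the GC content of the transcript, and the 8 genes differ in it. Of 10 groups of expressed genes formed by GC content, the lowest (at most 41.5%) had a median log2 ratio of 0.23 and the highest (at least 57.8%) of -0.10. *B2m* (41.2%) and *Erap1* (41.5%) have a low GC content, and the other 6 genes lie between 52.6% and 57.1%. When the median of 20 bins of GC content was subtracted, *Erap1* was at 0.18, *H2-K1* and *B2m* were both at -0.21, *Tap1* was at -0.17 and *Tapbp* at -0.10. The values of *H2-D1* and *Tap2* were -0.07 and -0.04. *Nlrc5* went from -0.07 to 0.01, so that 6 of the 8 genes were below 0, with a median of -0.08. The part of GC content in these differences was not tested further.

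**Figure D3:**
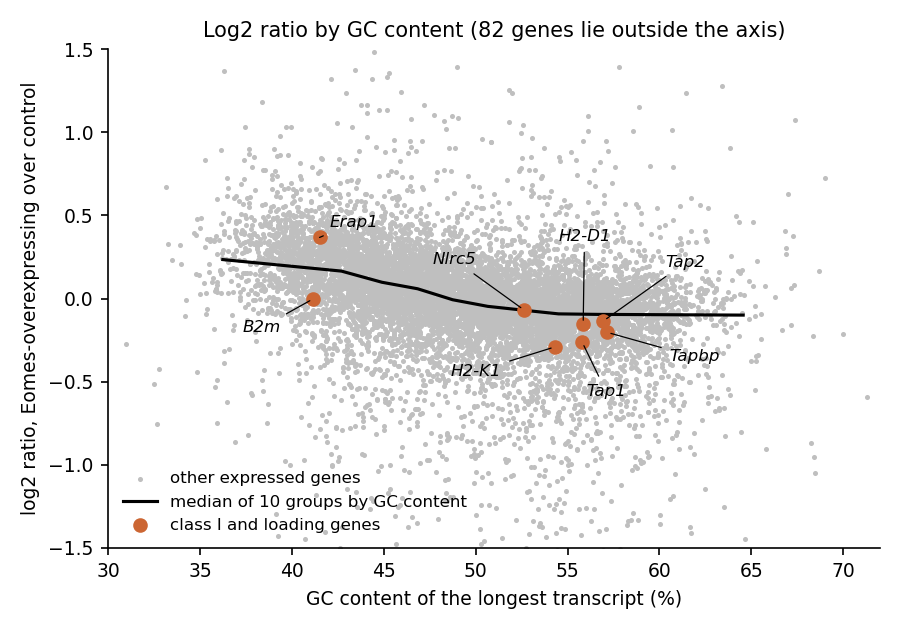
Log2 ratio of each expressed gene (grey) against the GC content of its longest annotated transcript in percent, with the median of 10 groups of genes (line) and the 8 class I and loading genes (orange). *B2m* lies below the line at a GC content of 41.2% and *Erap1* above it at 41.5%, while the 6 others lie on or below it. 82 genes with a log2 ratio beyond the axis are not drawn.

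The other class I heavy chain genes of the H2 region had log2 ratios on both sides of 0. Most were above 0 in the Q group, and most were below 0, as for *H2-K1* and *H2-D1*, in the T and M groups. Of 22 listed by name, 12 were expressed, and 1 of these, *H2-Q10*, was past 1.5-fold, beside 7.65% of all expressed genes. *H2-Q10*, which encodes a secreted class I protein known from liver, rose from 1.71 RPKM in the control library to 11 RPKM in the Eomes library (log2 ratio 2.69). After centring by GC content it was 2.77. In the Q group, of which 6 genes were expressed, *H2-Q6* (37.9 and 53.8), *H2-Q9* (31.0 and 42.3), *H2-Q7* (69.2 and 80.5) and *H2-Q8* (18.0 and 20.7) had log2 ratios of 0.51, 0.45, 0.22 and 0.20, and *H2-Q4* (60.4 and 54.5) of -0.15. *H2-Q6* was past 1.5-fold after centring by GC content, at 0.61. In the T and M groups 5 of 6 expressed genes had ratios below 0. *H2-T23*, which encodes Qa-1, the ligand of CD94/NKG2 receptors, was at 120.0 and 90.7 (log2 ratio -0.40). *H2-M3*, which presents formylated peptides and whose promoter has the same spacing as *H2-K1*, was at 14.3 and 9.99 (log2 ratio -0.52). *H2-K1* and *H2-D1* together made up 74.6% of the summed heavy chain RPKM in the control library and 71.8% in the Eomes library.

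These heavy chain genes resemble each other, so that short reads can be split between them. Of the 50-base stretches of the longest transcript, 8.11% for *H2-K1* and 14.3% for *H2-D1* also occur in transcripts of other genes. The share was 19.7% for *H2-Q10*, with *H2-Q7* as the gene sharing most stretches with it, and 32.0% for *H2-Q6*. In the T group it was 35.8% for *H2-T22* and 31.6% for *H2-T10*, so the values of these Q and T genes are less certain. *B2m*, *Erap1* and *Nlrc5* shared no such stretch, *Tap1* and *Tap2* shared 0.647% and 0.737% with each other, and *Tapbp* shared 57 of 2849 with other transcripts.

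**Figure D4:**
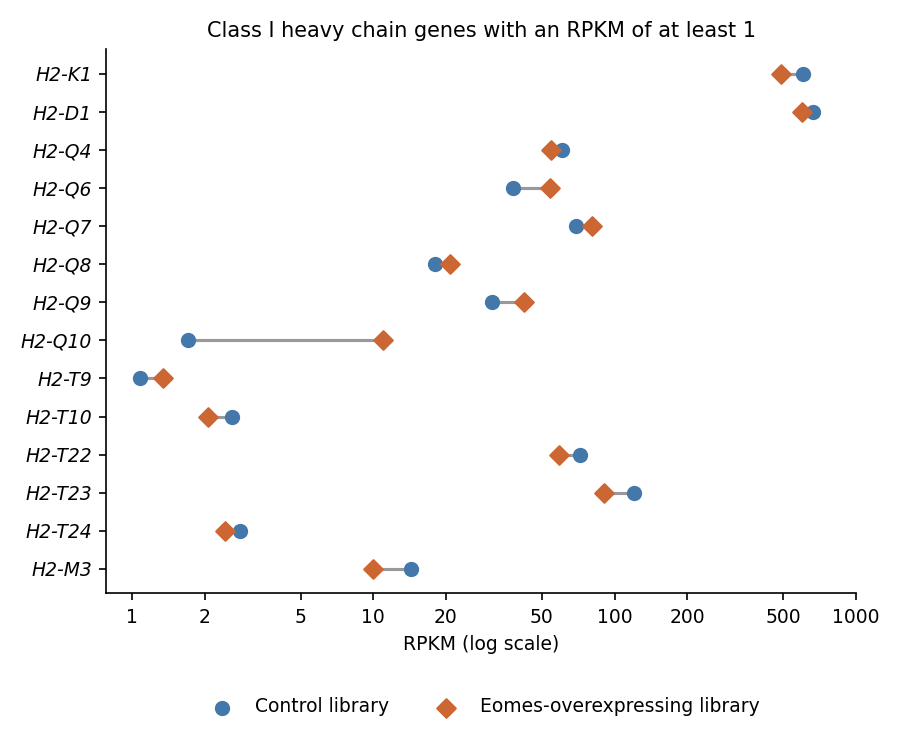
RPKM (log axis) of the class I heavy chain genes of the H2 region in the control library (circles) and the Eomes-overexpressing library (diamonds). *H2-Q10* goes from 1.71 to 11, the T and M genes other than *H2-T9* have lower values in Eomes-overexpressing cells, and *H2-K1* and *H2-D1* lie far above the others.

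The steps before and after peptide transport were read from lists of pathway genes. Among 7 folding and loading partners none was past 1.5-fold, with a median log2 ratio of 0.01. *Tapbpl*, a tapasin-related peptide editor, was the lowest at 43.5 and 29.6 (log2 ratio -0.56). *Canx*, the calnexin that binds new heavy chains, was the highest at 98.5 and 126.0 (log2 ratio 0.36), and *Calr*, or calreticulin, the most abundant, was at 917.7 and 914.0. All 6 genes of the immunoproteasome and its activators were within 1.5-fold, with ratios below 0 and a median of -0.10, which compares with -0.09 for the 3 constitutive catalytic subunits. *Psme2*, a subunit of the PA28 activator, was at 251.3 and 203.7 (log2 ratio -0.30), and *Psmb8*, an inducible catalytic subunit, at 380.9 and 371.5 (-0.04). *Psmb8* stood at 1.29 times its constitutive counterpart *Psmb5* (294.9 and 276.8) in the control and at 1.34 times in the Eomes library. The ratio of *Psmb9* to *Psmb6* (223.6 and 199.3) was 0.672 and 0.635, and that of *Psmb10* to *Psmb7* (297.0 and 278.0) was 0.361 and 0.364. As deposited, the ratio of inducible to constitutive subunit was close in both libraries for each pair, but after centring by GC content the log2 ratio of *Psmb10* was 0.0086 and that of *Psmb7*, with a GC content of 40.8%, was -0.31. Of 8 cytosolic and endosomal peptidases none was past 1.5-fold, with a median of 0.05. The highest was *Tpp2* (19.3 and 25, log2 ratio 0.38), the lowest *Npepps* (25.3 and 23.5, log2 ratio -0.11) and the most abundant *Thop1* (65.3 and 64.6).

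Among 12 regulators of class I transcription 1, *Irf1*, was past 1.5-fold, beside 7.65% of all expressed genes. *Irf1*, a factor that binds the IRF element of class I promoters, fell from 21.6 to 14.1 RPKM (log2 ratio -0.62), and was under 1.5-fold after centring by GC content (-0.53) or with 1 RPKM added to both values (-0.58). *Rfx5*, *Rfxap* and *Rfxank*, which form the complex that NLRC5 works with, had ratios of 0.09, -0.05 and -0.03. *Creb1* had the highest ratio (4.63 and 6.34, log2 ratio 0.45), and *Nfkb1* the highest RPKM (148.3 and 146.9). The median of the list was -0.02. Among 10 interferon receptor and signalling genes 1, *Ifngr2*, was past 1.5-fold, beside the same 7.65%. *Ifngr2* was at 1.14 and 0.63 (log2 ratio -0.86), a value that was -0.39 with 1 RPKM added. *Jak1* was at 33.2 and 40.6 (log2 ratio 0.29) and *Socs1* at 85.6 and 68.0 (-0.33). The median of that list was -0.09.

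**Figure D5:**
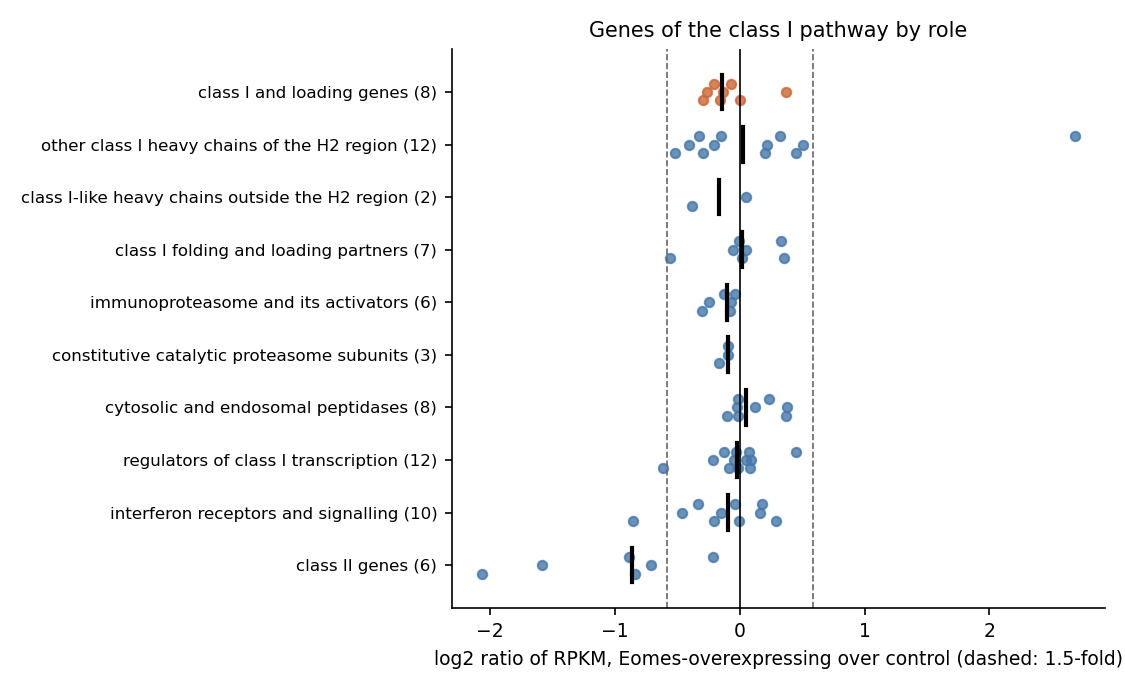
Log2 ratio of RPKM for each expressed gene (points) of the class I set (orange) and of the other lists of the pathway (blue), with the number of expressed genes in parentheses, the median as a bar and 1.5-fold as dashed lines. The class I genes stay within 1.5-fold around a median of -0.15, *H2-Q10* is the point at 2.69, and 5 of 6 class II genes are past 1.5-fold lower.

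MHC class II genes, which share the promoter module, were set beside the class I genes. Of 10 in the list 6 were expressed, and 5 of these were lower, beside 5.19% of all expressed genes. The median log2 ratio of the 6 was -0.86 (-0.76 after centring by GC content). Apart from *Cd74* they averaged under 10 RPKM, a level for which no share was computed. *Cd74*, the invariant chain, fell from 20.2 to 4.82, *H2-DMb2* from 6.37 to 2.12, *H2-DMa* from 10.6 to 5.71, *H2-Ab1* from 11.1 to 6.20 and *H2-Oa* from 6.35 to 3.88, and *H2-DMb1* was at 1.44 and 1.24. *Ciita*, the class II transactivator, was at 0.11 and 0.07, both under the limit for expressed genes. The B cell marker *Cd79b* and the dendritic cell marker *Xcr1* were lower in the same library, and their part in the class II values was not tested. Outside the H2 region 2 of 5 class I-like genes were expressed, *Cd1d1*, which presents lipids (3.03 and 2.32), and *Mr1*, which presents vitamin B metabolites (2.39 and 2.47).

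The genes *Tapbp*, *H2-K1*, *Tap1*, *Tap2* and *H2-D1* lie within 1352 kb of chromosome 17 (mm10, 33915899 to 35267499). Of the 54 other expressed genes in that stretch none was higher and 9 were lower (16.7%), beside 5.19% lower among all expressed genes. Their median log2 ratio was -0.07, while the log2 ratios of the 5 class I and loading genes inside the stretch ran from -0.29 (*H2-K1*) to -0.14 (*Tap2*). The 9 genes, named after their values were seen, were the class II genes *H2-Ab1*, *H2-DMa*, *H2-DMb2* and *H2-Oa*, and also *Ltb*, *Lst1*, *Ddah2*, *Hspa1a* and *Ly6g5b*. *Ltb*, which encodes lymphotoxin beta, was the most abundant of them and fell from 197.2 to 117.6. The others were at 11.1 RPKM or less in both libraries. For genes averaging under 10 RPKM no share past 1.5-fold was computed, and the 9 were not counted again after centring by GC content. The count of 9 is therefore not set against genes of like level. With 1 RPKM added the number lower among all expressed genes fell from 515 to 285.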

How the data were processed

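Total RNA was sequenced as 1 library per condition on an Illumina instrument, and how many cultures or mice went into each is not stated. After filtering with SOAPnuke, HISAT and Bowtie2 mapped the reads to mm10, and the authors deposited FPKM values computed with RSEM, 1 per gene symbol, which their methods call RPKM. Values have 2 decimals and start at 0.01, and no normalization between the libraries is stated. Read numbers were not recovered from the steps of low values, so the depth and its counting error are unknown. Entries whose symbol had become a date were dropped (20 and 19, respectively).

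Log2 ratios were computed with Python 3.11.15, numpy 2.4.6 and pandas 2.3.3, with values not listed set to 0.01, and plots were drawn with matplotlib 3.10.9. The 1.5-fold threshold follows the study, whose FDR was not used. GC content came from the longest GENCODE vM21 transcript of each symbol (99.1% of expressed genes). Centring and scaling were tested on simulated data. The genes described and the lists were chosen with earlier results of these data known. The genes named were the 8 genes, *Eomes* and, from each list, every gene past 1.5-fold and those with the highest and lowest ratio and the highest RPKM, and further genes of the lists were named after their values were seen. Promoter windows are from RefSeq. Eomes binding was not analysed here, and some genes of the lists are not reported here.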

Additional observations from a re-analysis of the deposited data

How the results depend on the processing

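No paired analysis was possible because each condition has 1 library, and for the same reason no library could be left out. Under 9 alternatives (0.1 or 1 RPKM added, no minimum RPKM or one of 5, a 2-fold threshold, 3 other scalings and centring by GC content) none of the 8 class I and loading genes was past the threshold. Most of these could not have changed that count. Added RPKM, another minimum RPKM or a 2-fold threshold can neither bring these genes past the threshold nor change a sign. The 3 other scalings moved all log2 ratios by at most 0.032. Only centring by GC content could have moved one of the 8 genes past it. The median log2 ratio of the 8 genes stayed below 0, from -0.15 to -0.08. The ratio of *B2m* was above 0 under 3 alternatives, that of *Nlrc5* under centring by GC content, and the other 6 genes kept their sign. The numbers of all expressed genes higher and lower were 118 and 285 with 1 RPKM added, 1356 and 2088 without a minimum RPKM, 95 and 213 with a minimum of 5, and 69 and 175 at 2-fold, in place of 244 and 515. Without a minimum RPKM the median of the myeloid markers turned to 0.082, from -0.69 for *Xcr1* alone.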
